A study of Rattus norvegicus with 8 samples.

Results

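Galectins 1 and 3, encoded by Lgals1 and Lgals3, were followed in lower lumbar cord from Sprague Dawley rats, 4 days after a hemisection (a cut through one side of the cord) at thoracic level 9 and without injury. The 2 genes were chosen by identifier, ENSRNOG00000009884 for Lgals1 and ENSRNOG00000010645 for Lgals3, from the 32883 genes of the molecule count table. The choice was made with the comparison of injured and uninjured libraries in view, so the differences between the groups are given as description. Where a fit across all genes passed or missed its threshold for one of them, this describes that fit and is no independent evidence of a difference. The table carries identifiers only. The symbols of both genes came with the choice and could not be checked here, because the RefSeq gene table holds no Ensembl identifier for any of its 47357 genes. Both genes were among the 4159 that passed the filter on low counts, although Lgals1 reached the filter's level in 1 of 4 uninjured and in 4 of 4 injured libraries.

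The study's question was the effect of a thoracic injury on the transcripts of intact cord below it. Its 4 uninjured and 4 injured libraries were made with CEL-Seq2, which counts the 3' ends of polyadenylated transcripts as single molecules, so that gene length does not enter a count. The labels give no age or sex. They do not say whether uninjured rats had a sham operation, which side of the cord was taken, or whether each library came from a separate rat. Libraries held 119808 to 405537 molecules, and those numbered 3 were the shallowest of each group. Markers of spinal cord cell types could not be looked up without symbols.

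Galectins are lectins that bind beta-galactoside sugars on glycoproteins and glycolipids, and they act both inside cells and, after export without a signal peptide, outside them. Galectin-1 pairs with itself through its single sugar-binding domain. It is known from motor and sensory neurons, astrocytes, vessels and meninges, and from work on axon regrowth. Galectin-3 joins a sugar-binding domain to a proline- and glycine-rich tail through which copies assemble, and it is a classical product of macrophages and activated microglia that also gathers on damaged lysosomes.

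Lgals3 was higher in every injured library than in every uninjured one, and its fitted difference was 4.72-fold. Lgals1 was at a far lower level, and its fitted difference was 2.31-fold; 1 uninjured library lay within the range of the injured ones. In edgeR's quasi-likelihood fit without replicate number (adjusted p under 0.05), Lgals3 passed the threshold and Lgals1 did not, and with replicate number as a block both passed. Over all tested genes, in the fit without the block, 0.986% were called higher (41 of 4159) and 0 were called lower by that test; at an unadjusted p under 0.05 it gave 222 higher and 104 lower genes. DESeq2 called 49 genes higher and 2 lower, and limma-voom 47 and 1. Lgals3 was called by both of these, and Lgals1 by neither. With the block, edgeR called 2.26% of tested genes higher and 0.385% lower. In bulk tissue, a change in the number of cells that make a transcript and a change in RNA per cell cannot be told apart.

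Lgals3, the macrophage-associated galectin, was counted 84, 96, 61 and 88 times in uninjured replicates 1 to 4 and 605, 640, 191 and 493 times in injured replicates 1 to 4. Scaled to library size as counts per 1000000 molecules (CPM), its level was 216, 423, 707 and 211 in uninjured replicates 1 to 4. The level was 1671, 1710, 1488 and 2079 CPM in injured replicates 1 to 4. The groups did not overlap: the lowest injured library, replicate 3, stood 2.11 times above the highest uninjured library, also numbered 3. Such a separation, with all injured libraries above all uninjured ones, was found for 3.08% of tested genes.

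The mean level of Lgals3 was 389 ± 234 CPM without injury (SD, n = 4) and 1737 ± 248 CPM after it (SD, n = 4). The fitted log2 fold change was 2.24 (standard error 0.34), against a median of -0.01 over all tested genes, and ranked 13 among them. With replicate number as a block, it was 2.38. Among the genes called higher, only 1 averaged more molecules per library than Lgals3, which averaged 282. Its rank by molecule count rose with the level, from between 228 and 912 of 4159 in uninjured libraries to between 56 and 89 in injured ones.

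Relative to counting error, Lgals3 differed more among uninjured libraries than among injured ones. In CPM its SDs were alike, at 234 without injury and 248 after it. The variance of Lgals3 counts around a common level was 26.9 times that of counting alone in uninjured libraries and 7.10 times in injured libraries. Exact 95% Poisson intervals, which cover counting error only, ran from 172 to 267 CPM in uninjured replicate 1 and from 541 to 908 CPM in uninjured replicate 3. Replicates 1 and 4, the deepest uninjured libraries, had the lowest levels, and replicate 3, the shallowest library of all, had the highest. The part of depth in this spread was not tested. As an unscaled share of all molecules, Lgals3 took 0.0224%, 0.0403%, 0.0509% and 0.0217% in uninjured replicates 1 to 4, and 0.169%, 0.169%, 0.125% and 0.192% in injured replicates 1 to 4. The order of the replicates within each group was the same on both scales.

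When libraries of the same number were set side by side, injured over uninjured CPM of Lgals3 came to 7.74, 4.04, 2.11 and 9.85 for numbers 1 to 4. The smallest ratio, for number 3, came with the highest uninjured and the lowest injured level. Without both libraries numbered 3, the fitted fold was 6.52. Within numbers 1 and 2 alone the fitted fold was 5.44. Within numbers 3 and 4 alone it was 4.12, and Lgals3 was not among the 3 genes called in that smaller fit.

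Lgals1 was counted 6, 4, 2 and 29 times in uninjured replicates 1 to 4 and 30, 23, 12 and 22 times in injured replicates 1 to 4. Its level was 15.4, 17.6, 23.2 and 69.6 CPM in uninjured replicates 1 to 4. The level was 82.9, 61.5, 93.5 and 92.8 CPM in injured replicates 1 to 4. Uninjured replicate 4 lay among the injured libraries, above injured replicate 2 and below the other 3, so the groups overlapped. The other 3 uninjured libraries lay below all 4 injured ones. In uninjured replicate 3 the 2 molecules were under the floor of 3 molecules, which stands at 34.8 CPM in that library.

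**Figure D1:**
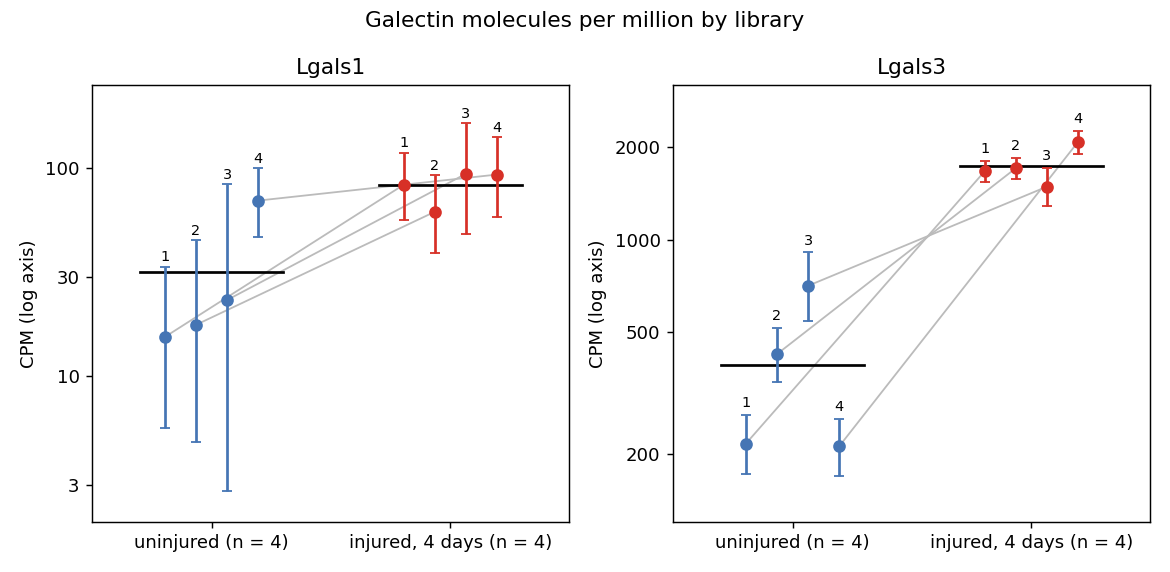
Level of Lgals1 (left) and Lgals3 (right) in CPM, on log axes, in the 4 uninjured and 4 injured libraries; points are libraries marked by replicate number, error bars are exact 95% Poisson intervals, black lines are group means and grey lines join libraries of the same number. Lgals3 ran from 211 to 707 CPM without injury and from 1488 to 2079 CPM after it, while uninjured replicate 4 had 69.6 CPM of Lgals1, within the injured range of 61.5 to 93.5 CPM.

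The mean level of Lgals1 was 31.4 ± 25.6 CPM without injury (SD, n = 4) and 82.7 ± 14.9 CPM after it (SD, n = 4). The fitted log2 fold change was 1.21 (standard error 0.42) and ranked 71 among all tested genes. With replicate number as a block, the log2 fold change was 1.35. Injured over uninjured CPM by number came to 5.38, 3.49, 4.03 and 1.33 for numbers 1 to 4, above 1 for each number and smallest where uninjured replicate 4 was the control. Within numbers 1 and 2 alone the fitted fold was 4.37, and within numbers 3 and 4 alone it was 1.64.

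The size of the Lgals1 difference rested on uninjured replicate 4. Without that library the uninjured mean was 18.7 ± 4.00 CPM (SD, n = 3), and the fitted fold was 4.55; in that fit Lgals1 passed the threshold that it missed with all 8 libraries and no block. Uninjured replicate 4 stood at 3.71 times the mean of the other uninjured libraries. In the same library, a ratio at least this large was found for 3 of 4159 tested genes (0.0721%), Lgals1 included. In uninjured replicates 1 to 3 it was found for 3, 5 and 51 genes. The cutoff was the ratio of Lgals1 itself, in the library where Lgals1 stood out, so these counts are descriptive. Uninjured replicate 4 was the deepest library of the series, with 405537 molecules. The exact 95% Poisson interval of its Lgals1 level was 46.6 to 99.9 CPM. The intervals of the other uninjured libraries were wide, and that of replicate 3, from 2.81 to 83.7 CPM, overlapped it. Those of replicates 1 and 2 ended at 33.6 and 45.1 CPM, below it.

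Among injured libraries, with 12 to 30 molecules each, Lgals1 showed no spread beyond counting error. The variance of its counts was 0.814 times that of counting alone, against 6.60 times in uninjured libraries. All 4 injured intervals overlapped one another, so no order of the injured libraries could be read at this depth.

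**Figure D2:**
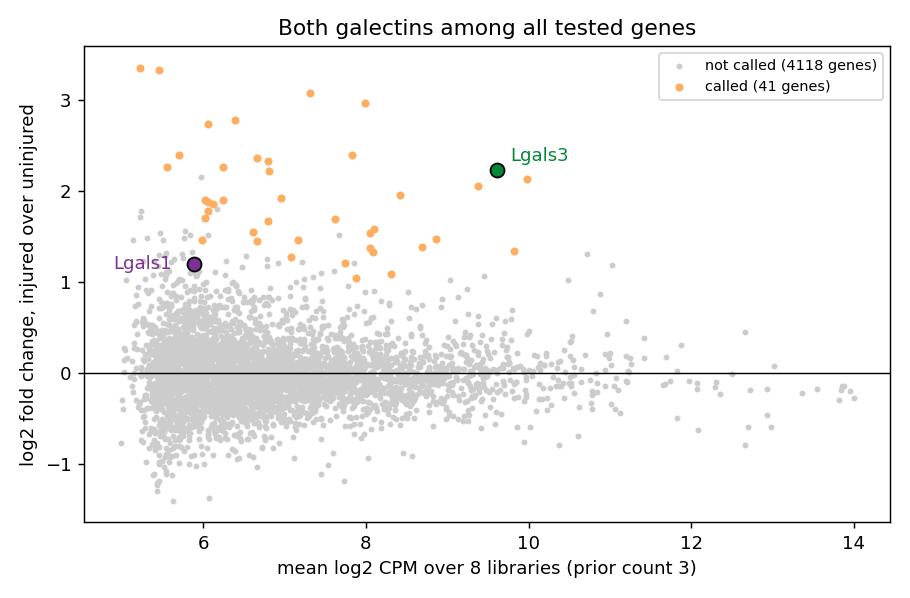
Fitted log2 fold change, injured over uninjured, against mean log2 CPM over the 8 libraries for the 4159 tested genes, 41 of them called higher. Lgals3 lies at 2.24 among the more abundant called genes, and Lgals1 at 1.21 among genes of low level that were not called.

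Set against each other, the galectins showed no resolved difference in proportion among 7 of the 8 libraries. There were 20.2, 27.8, 15.9 and 22.4 molecules of Lgals3 for each molecule of Lgals1 in injured replicates 1 to 4. In uninjured replicates 1 to 3 the numbers were 14.0, 24.0 and 30.5, which spanned the injured range. In uninjured replicate 4 there were 3.03. The share of Lgals1 among the molecules of both genes was 24.8% in that library (exact 95% binomial interval 17.3% to 33.6%). In the other 7 libraries the share lay between 3.17% and 6.67%, their intervals all overlapped, and the highest upper bound was 13.9%. Uninjured replicate 4 thus combined the highest uninjured level of Lgals1 with the lowest uninjured level of Lgals3. That Lgals3 level, 211 CPM, was not resolved from the 216 CPM of uninjured replicate 1, as their 95% Poisson intervals overlapped.

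**Figure D3:**
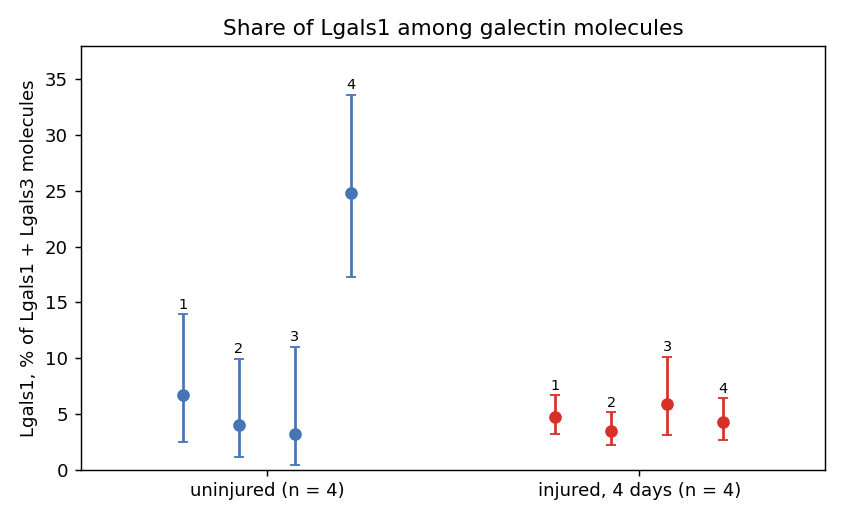
Lgals1 as a percentage of all Lgals1 and Lgals3 molecules in each library, marked by replicate number, with exact 95% binomial intervals. Uninjured replicate 4 lies at 24.8%, and the other 7 libraries lie between 3.17% and 6.67%.

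Together the galectins took 0.0369% ± 0.0129 of all molecules in uninjured and 0.171% ± 0.0281 in injured libraries (SD, n = 4 each). Most of these molecules were Lgals3, with Lgals1 at 24.8% of them in uninjured replicate 4 and at most 6.67% in any other library. The fitted fold of Lgals3 was larger than that of Lgals1, but their difference was not tested. Without uninjured replicate 4 the order turned, with 4.55-fold for Lgals1 and 4.03-fold for Lgals3.

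The profiles of the galectins over the 8 libraries were compared with those of the other 4158 tested genes by the root mean square difference of log2 CPM, each gene centred at its own mean. Lgals1 and Lgals3 differed by 0.95 on this scale. Lgals1 ranked 136 in nearness to Lgals3, for which the median gene differed by 1.32. Lgals3 ranked 2724 in nearness to Lgals1, for which the median gene differed by 0.89. With each gene centred within its group, which removes the injury contrast, they differed by 0.81. That was more than the median gene differed from either (0.59 from Lgals1 and 0.62 from Lgals3). This distance grows with the spread of each gene within its groups. The SD of log2 CPM within groups was 0.55 for Lgals1 and 0.59 for Lgals3. A distance above the median therefore does not by itself set the galectins apart. Both galectins deviated from their group means in the same direction in 3 of the 8 libraries. They lay furthest apart in uninjured replicate 4, where Lgals1 deviated by 1.09 and Lgals3 by -0.67. Next came uninjured replicate 3, with -0.15 for Lgals1, counted there as 2 molecules, and 1.02 for Lgals3.

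The gene nearest to Lgals3 was ENSRNOG00000011821, which has no symbol here, with a root mean square difference of 0.26. Its mean was 350 ± 188 CPM without injury (SD, n = 4) and 1384 ± 297 CPM after it (SD, n = 4). Like Lgals3, it was highest among uninjured libraries in replicate 3, at 568 CPM, and lowest in replicate 4, at 175 CPM. The gene nearest to Lgals1 was ENSRNOG00000025811, with a difference of 0.27. Its mean was 80.6 ± 28.7 CPM without injury (SD, n = 4) and 197 ± 36.1 CPM after it (SD, n = 4). Its highest uninjured level was also in replicate 4, at 115 CPM, and its lowest injured level also in replicate 2, at 152 CPM. Both identifiers are given for likeness of profile only. They were picked over these same libraries, so sharing high and low replicates with a galectin follows in part from that choice. Neither stayed nearest without both libraries numbered 3.

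**Figure D4:**
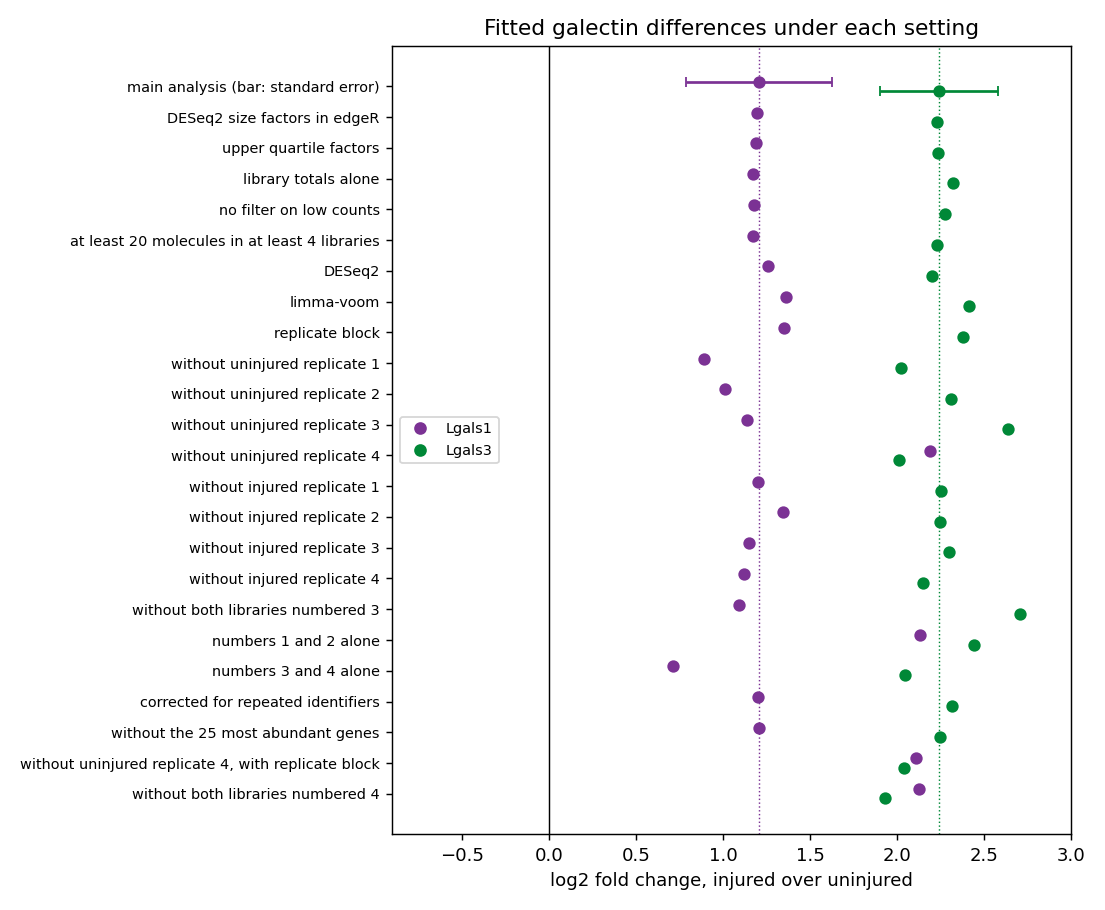
Fitted log2 fold change, injured over uninjured, of Lgals1 (purple) and Lgals3 (green) in the main analysis, with its standard error, and under each alternative; dotted lines mark the main values. Lgals3 stayed between 1.93 and 2.71, while Lgals1 ranged from 0.71 to 2.19 and moved to 2.19 when uninjured replicate 4 was left out.

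A few limits of counting differ between the genes. The RefSeq table (GRCr8) lists 1 pseudogene named as a copy of Lgals1 and 0 for Lgals3; no source used here says how reads shared with such a copy were counted, so the level of Lgals1 is uncertain. The highest count of any gene lay between 3989 and 4080 in every library. A correction that takes 4096 possible identifiers of 6 bases, a length that no source used here states, adds 8.74% to the largest Lgals3 count and at most 0.368% to a count of Lgals1. Corrected in this way, the fitted log2 fold changes were 2.32 for Lgals3 and 1.20 for Lgals1.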

How the data were processed

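The authors deposited raw molecule counts per Ensembl gene for 8 CEL-Seq2 libraries. Tools named in the submitters' processing notes are HTSeq 0.6.0 and HISAT2 2.0.4, with build Rnor_6.0; no source used here gives the identifier collapsing, annotation release or read filters. Genes were filtered with edgeR's filterByExpr (minimum count 10, minimum total 15), scaled by TMM and fitted by quasi-likelihood (edgeR 4.0.16, robust, R 4.3.3) across all 4159 genes, with Benjamini-Hochberg adjusted p under 0.05 as a call. CPM are counts relative to TMM-scaled molecules in tested genes, and log2 CPM used a prior count of 3. Standard errors were derived from the F statistic. DESeq2 1.42.0, limma-voom (limma 3.58.1), other scalings and filters, and leaving out libraries were alternatives. The fit was tested on simulated data. Plots used matplotlib 3.10.9.

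The genes, lists and tests were chosen with earlier results of these data known. The rule for other named genes took the 1 nearest to each galectin; lists of galectin partners, glycan enzymes, lysosome genes, cell type markers and promoter motifs could not be used without symbols or promoter entries. Correlations across genes of the deviations from group means were 0.39, 0.36, 0.17 and 0.45 for libraries of the same number (1 to 4) and between -0.39 and 0.24 for different numbers, so that number 3 lay inside that range. No label states a pairing. The main fit ignored the numbers, and the fit with the number as a block is given beside it where it differs. No libraries of a group agreed within counting noise. Values of p weigh the difference between the groups against the spread between these libraries, and that spread may be technical.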

Additional observations from a re-analysis of the deposited data

Results flagged for a closer look

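Uninjured replicate 4 had 69.6 CPM of Lgals1, against 15.4 to 23.2 CPM in the other uninjured libraries. Its gap to the nearest of them was 0.857 of the group's range, above Dixon's 95% critical value for 4 samples, which chance exceeds in about 1 of 20 groups. That rate is for a gap at either end of the range, in any of the 4 libraries of a group. Of 4159 tested genes, 40 (0.962%) were flagged as high in this library, and 28, 19 and 105 in uninjured replicates 1 to 3. These counts cover the high end alone, 1 library at a time, so they do not compare with that rate. Lgals3 was not flagged in either group.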

How the results depend on the processing

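Both galectins kept a higher fitted level after injury in all 23 alternatives. Lgals3 passed the threshold in 22 of them and Lgals1 in 5. The genes were chosen with this contrast in view, and the alternatives reuse the same libraries. These tallies therefore describe the fits and are no independent evidence of a difference. For Lgals3, whose groups did not overlap, a higher fitted level in each subset of libraries was largely fixed in advance. The log2 fold change of Lgals3 was 2.01 to 2.63 when 1 library was left out. That of Lgals1 was 0.89 to 2.19 when 1 library was left out, 2.13 in numbers 1 and 2 alone, 2.11 without uninjured replicate 4 in the fit with the replicate block, and 2.12 without both libraries numbered 4 (the last 2 settings were chosen after seeing the data). With the replicate block alone it was 1.35 for Lgals1, which passed the threshold there, and 2.38 for Lgals3. The number of called genes, 41, was 98 without a low-count filter (94 higher, 4 lower), 110 with the replicate block (94 higher, 16 lower), 62 without both libraries numbered 3, 86 in numbers 1 and 2 alone, 3 in numbers 3 and 4 alone, 21 without both libraries numbered 4 and 23 to 77 when 1 library was left out (23 without uninjured replicate 1 or 4, 77 without uninjured replicate 3). The cause of these changes in the number of calls was not tested. Of the 2 nearest genes, 1 stayed nearest with a prior count of 1, 1 among genes averaging at least 50 molecules and 0 without both libraries numbered 3. With 2 to 30 molecules of Lgals1 per library, counting error limits its level more than that of Lgals3.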
